A study of Rattus norvegicus with 18 samples.

Results

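Antioxidant enzymes were examined as a group of 9 rat genes: the superoxide dismutases Sod1 and Sod2, catalase (Cat), the glutathione peroxidases Gpx1 and Gpx4, the peroxiredoxin Prdx6, the thioredoxin reductase Txnrd1, the quinone reductase Nqo1 and the microsomal glutathione transferase Mgst1. They were chosen by gene symbol, and every probe set that the platform annotation gives to one of these symbols was taken, which gave 10 of the 15923 probe sets on the array and 9 of 10412 named genes. Txnrd1 had 2 probe sets, and the other 8 genes had 1 each. All 10 passed the filter on low signals that kept 9482 probe sets, so each member was tested.

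The samples were total RNA from F344BN rats, a cross of the Fischer and Brown Norway strains, taken from the oculomotor nucleus of the midbrain or from the spinal cord at 6, 18 or 30 months of age. Each of the 6 groups had 3 arrays, 18 in all, and each array carried RNA pooled from 4 animals, so the spread between arrays is a spread between pools. The rats differed by age alone per the labels, which give no treatment, genotype or sex. The series' design text speaks of more independent replicates in a group than the labels list, and the labels were followed. Because the samples were bulk tissue, fewer cells of a type and less RNA per cell cannot be told apart in any value that follows.

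The arrays had been brought to a common scale, with medians from 252 to 275, and no 2 were identical. On the first principal component, which held 27.1% of the variance after group means were removed, 4 arrays stood apart at the negative end, with scores from -16.6 to -12.1: oculomotor nucleus at 30 months replicate 3 and cord replicate 1 at 6 months, replicate 3 at 18 months and replicate 3 at 30 months. Replicate 2 of the 30-month oculomotor nucleus lay at the other end, at 14.2, and the remaining 13 scored from -1.7 to 9.01. Results without the 4 arrays at the negative end are given beside the values they touch, and every array was also left out singly. The labels give no batch, and nothing in them says whether the tissues of 1 age came from the same animals.

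Superoxide, made mainly as a by-product of respiration, is converted by superoxide dismutases to hydrogen peroxide, which catalase, glutathione peroxidases and peroxiredoxins then reduce. Glutathione and thioredoxin carry the electrons for most of these steps, thioredoxin reductase recharges thioredoxin from NADPH, and quinone reductase and glutathione transferases dispose of reactive quinones and lipid products. Mutations in the human counterpart of Sod1 cause a familial form of amyotrophic lateral sclerosis, a disease of motor neurons.

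Of the 9 members 6 differed between the tissues, as did 47.2% of all probe sets, and 1 changed with age. Mgst1, Gpx1, Nqo1 and Cat were higher in the cord than in the oculomotor nucleus, between 1.62-fold and 2.11-fold, while Prdx6 and Sod1 were slightly lower there. With age, Mgst1 rose in the cord, 1.70-fold by 18 months and 1.75-fold by 30 months, where 0.728% and 0.221% of all probe sets were called. No member passed the test with age in the oculomotor nucleus.

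The upstream sequences of the 3 members whose signal on every cord array exceeded that on every oculomotor array are shown, since these genes had no overlap between the tissues, as was so for 14.2% of all probe sets. Each run is the 250 bases before the RefSeq start of the gene in the assembly GRCr8, written 5′ to 3′ on the strand of the gene, with the GC box (GGGCGG on either strand, the core that Sp1-type factors recognise) in capitals. The windows are chr4:172760680-172760929 on the plus strand for Mgst1, chr8:117905212-117905461 on the plus strand for Gpx1 and chr19:52220268-52220517 on the minus strand for Nqo1.
Mgst1: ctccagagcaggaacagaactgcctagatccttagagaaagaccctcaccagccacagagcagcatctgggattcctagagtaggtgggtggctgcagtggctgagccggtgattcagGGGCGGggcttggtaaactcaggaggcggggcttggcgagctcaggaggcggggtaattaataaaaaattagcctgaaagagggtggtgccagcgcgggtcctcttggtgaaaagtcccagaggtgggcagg
Gpx1: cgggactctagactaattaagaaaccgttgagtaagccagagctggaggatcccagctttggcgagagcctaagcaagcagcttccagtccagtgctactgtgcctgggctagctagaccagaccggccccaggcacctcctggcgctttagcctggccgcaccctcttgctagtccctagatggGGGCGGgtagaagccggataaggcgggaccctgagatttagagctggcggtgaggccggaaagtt
Nqo1: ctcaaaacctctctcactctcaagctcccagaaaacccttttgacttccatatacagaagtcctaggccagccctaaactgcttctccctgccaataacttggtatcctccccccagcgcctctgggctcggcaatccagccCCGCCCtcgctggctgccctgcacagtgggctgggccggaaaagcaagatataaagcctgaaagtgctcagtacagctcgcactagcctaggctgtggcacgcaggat

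Each of these windows held 1 GC box, which 30.5% of 33465 rat upstream windows of this length also held. The box was not particular to these 3: it was in 8 of 11 windows of 7 of the 8 members matched, Sod1, Sod2, Gpx4 and Txnrd1 among them, and Cat had none. The core of the antioxidant response element, searched as TGACNNNGC on both strands, was in none of the 3 and in 10.1% of all windows. The 11 windows exceed the members because some genes have several annotated starts, and Prdx6 had no match in the table; the element's core was found in 2 windows, 1 for Sod2 and 1 for Txnrd1. A match or its lack describes these letters in these windows only.

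Sod1, the copper and zinc dismutase of the cytosol (chromosome 11, 42942742 to 42948399 in GRCr8), showed no call with age. Its signal, the array's scaled intensity, was 5839, 5867 and 5867 in the oculomotor nucleus at 6 months, 6163, 5761 and 6243 at 18 months, and then 5821, 5240 and 6705 at 30 months. In the cord it was 5688, 4718 and 6444, then 5305, 4681 and 5557, then 4650, 4840 and 5639 at the same ages. The cord arrays reached lower than any oculomotor array but the groups overlapped at 6 and 30 months. Averaged over the ages, Sod1 was 1.13-fold lower in the cord (log2 difference -0.18, SE 0.07, limma adjusted p = 0.0379). This call was lost with 11 of the 18 single arrays left out, with limma adjusted p between 0.0505 and 0.0834 in those fits.

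Sod2, the manganese dismutase of mitochondria (chromosome 1, 50043323 to 50050168), did not differ beyond its spread in any comparison. Its signal was 1491 ± 109 (SD, n = 3), 1467 ± 221 and 1297 ± 181 in the oculomotor nucleus at the 3 ages. In the cord it was 1460 ± 369, 1286 ± 123 and 1522 ± 159. Sod2 had the largest within-group SD of the members, 0.21 on the log2 scale, against 0.11 for Nqo1 and a median of 0.18 over all probe sets kept. The tissue difference was -0.00 with a 95% interval from -0.19 to 0.18 on the log2 scale.

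Cat, the peroxisomal enzyme that splits hydrogen peroxide (chromosome 3, 110297340 to 110329526), was higher in the cord at each age. Within an age its arrays did not overlap between the tissues. The share of all probe sets without such overlap was not counted, so nothing is read from it. Over all ages Cat did overlap, since its highest oculomotor value, 1431, exceeded its lowest cord value, 1365. Its oculomotor signal was 1011, 881 and 933 at 6 months, 825, 776 and 829 at 18 months, and then 860, 1211 and 1431 at 30 months. Its cord signal was 1721, 1714 and 1365, then 1628, 1411 and 1384, then 1570, 1702 and 1447. The cord was 1.62-fold higher over the ages (log2 difference 0.69, SE 0.08, limma adjusted p = 1.14e-06), with ratios of 1.69 at 6, 1.82 at 18 and 1.37 at 30 months.

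In the oculomotor nucleus the 3 Cat values at 18 months lay below all 6-month and all 30-month values. The log2 difference from 18 to 30 months was 0.50 (SE 0.14), with an unadjusted p of 0.0026 and a limma adjusted p of 0.976. Groups without overlap made up 8.81% of all probe sets in that comparison. The highest 30-month value came from replicate 3, 1 of 4 arrays that stood apart from the rest, and without those 4 arrays the difference was 0.33 (limma adjusted p = 0.993). Without replicate 1 of the 30-month group, the lowest there, it was 0.70 (adjusted p = 0.0687).

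Gpx1, the cytosolic glutathione peroxidase (chromosome 8, 117905462 to 117906588), was about as far apart between the tissues as Mgst1. Its oculomotor signal was 1219, 1089 and 1078 at 6 months, 987, 1066 and 1036 at 18 months, and then 1304, 746 and 953 at 30 months. In the cord it was 1991, 1871 and 2046, then 2351, 2731 and 2076, then 2034, 2081 and 2301. The lowest cord array, 1871, exceeded the highest oculomotor array, 1304. The cord was 2.07-fold higher (log2 difference 1.05, SE 0.08, limma adjusted p = 5.28e-09).

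From 6 to 18 months all 3 cord values of Gpx1 lay above the 6-month values (log2 difference 0.27, SE 0.14, limma adjusted p = 0.545), while all 3 oculomotor values lay below theirs (-0.13, adjusted p = 1). The difference between these changes was 0.40 with a 95% interval from -0.03 to 0.83 and did not pass the test (limma adjusted p = 0.983).

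Gpx4, which reduces lipid hydroperoxides within membranes (chromosome 7, 10300833 to 10303629), did not pass the test in any comparison. The group means were 4782 ± 200 (SD, n = 3), 4738 ± 410 and 4483 ± 829 for the oculomotor nucleus in order of age, and 4809 ± 404, 4908 ± 239 and 4430 ± 380 in the cord. Every neighbouring pair in the order of these 6 means overlapped. The tissue difference was 0.02 on the log2 scale, with a 95% interval from -0.12 to 0.16. The upper end of that interval is a 1.12-fold difference in favour of the cord.

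**Figure D1:**
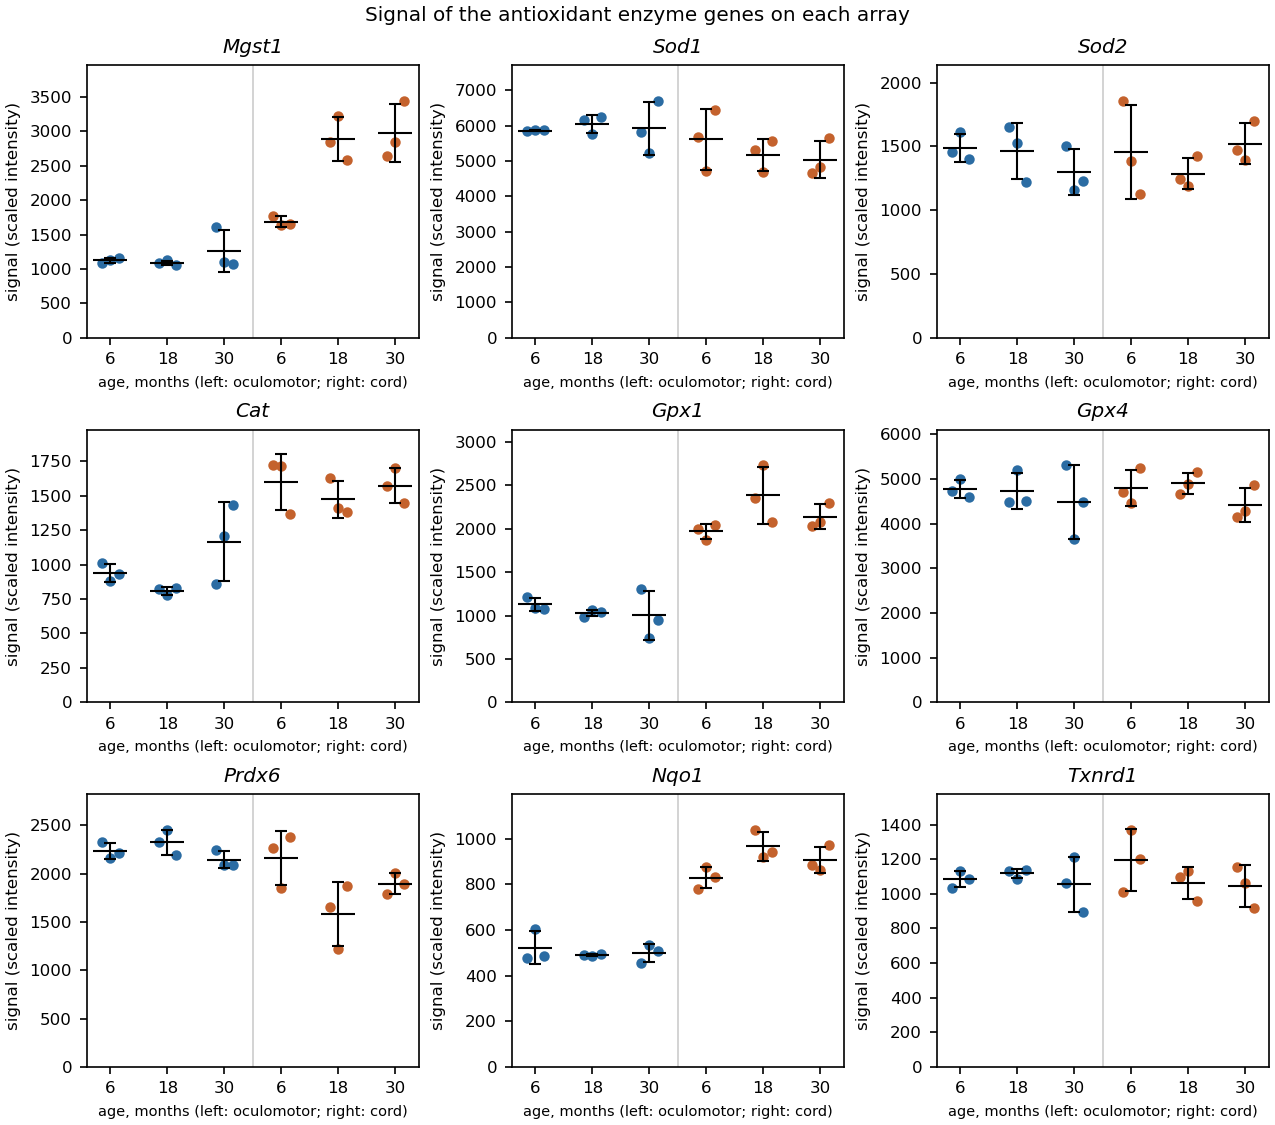
Scaled intensity of the 9 antioxidant enzyme genes on each of the 18 arrays (points; blue oculomotor nucleus, orange spinal cord), with the mean and SD of each group of 3 in black, by age in months. Mgst1, Gpx1, Nqo1 and Cat lie higher in the cord at each age, Mgst1 steps up in the cord after 6 months, and Sod1, Sod2, Gpx4 and Txnrd1 stay within or near the spread of their groups.

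Prdx6, a peroxiredoxin that reduces peroxides with glutathione and also acts as a phospholipase (chromosome 13, 76062082 to 76072631), was the member with the largest fitted fall with age, though it was not called. Its cord signal was 2265, 1850 and 2377 at 6 months, 1653, 1221 and 1873 at 18 months, and then 1786, 2007 and 1894 at 30 months. The 18-month values were the lowest on average, but the highest of them, 1873, exceeded the lowest 6-month value. The log2 difference from 6 to 18 months was -0.47 (SE 0.13), with an unadjusted p of 0.00146 and a limma adjusted p of 0.1. It was called only when replicate 3 of the 18-month cord was left out (-0.60, limma adjusted p = 0.0208). Without replicate 2 of that group, the lowest array, it was -0.29 (adjusted p = 0.45), and without the 4 arrays that stood apart it was -0.56 (adjusted p = 0.0604).

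In the oculomotor nucleus Prdx6 measured 2328, 2162 and 2216, then 2324, 2455 and 2194, then 2246, 2095 and 2091. These 9 values spanned a narrower range than the 9 from the cord. Over the ages Prdx6 was 1.21-fold lower in the cord (log2 difference -0.27, SE 0.07, limma adjusted p = 0.00467). The ratio of cord to oculomotor nucleus was 0.963 at 6 months, 0.671 at 18 months and 0.884 at 30 months.

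Txnrd1, the cytosolic thioredoxin reductase (chromosome 7, 22717620 to 22802553), was the member read by 2 probe sets. The brighter, which stands for the gene here, gave 1084 ± 47.4 (SD, n = 3), 1118 ± 26.5 and 1057 ± 159 for the oculomotor nucleus in order of age, and 1194 ± 179, 1062 ± 90.7 and 1044 ± 121 in the cord. Its tissue difference was 0.01 on the log2 scale (SE 0.07, limma adjusted p = 0.894).

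The second Txnrd1 probe set disagreed. It gave 605, 633 and 616 in the oculomotor nucleus at 6 months, 655, 577 and 640 at 18 months, and then 556, 545 and 421 at 30 months, and its means in the cord were 497 ± 50.4, 507 ± 38.1 and 522 ± 77.1. It was 1.14-fold lower in the cord (log2 difference -0.19, SE 0.07, limma adjusted p = 0.0407), a call lost with 13 of 18 single arrays left out. Its 3 oculomotor values at 30 months lay below those at both earlier ages (-0.30 from 6 months, SE 0.13, unadjusted p = 0.0332, limma adjusted p = 0.56), whereas the brighter probe set gave -0.05. Which transcripts each probe set reads was not examined, so no direction is given for Txnrd1.

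Nqo1, which reduces quinones in a single step and is a standard readout of the transcription factor Nrf2 (chromosome 19, 52205374 to 52220267), separated the tissues completely. Its oculomotor signal was 476, 605 and 486 at 6 months, 490, 484 and 493 at 18 months, and then 456, 536 and 506 at 30 months. In the cord it was 781, 877 and 831, then 1039, 919 and 942, then 884, 862 and 971. The lowest cord array, at 781, was above the highest oculomotor array, at 605. The cord was 1.79-fold higher (log2 difference 0.84, SE 0.06, limma adjusted p = 1.58e-09).

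With age, Nqo1 in the cord was higher on all 3 arrays at 18 months than on any at 6 months, by 0.22 on the log2 scale (SE 0.11), which did not pass the test (limma adjusted p = 0.492). By 30 months the arrays overlapped those of 6 months and the difference was 0.13 (adjusted p = 0.73). Its oculomotor differences from 6 months were -0.09 and -0.06.

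Mgst1, a trimeric enzyme of the endoplasmic reticulum and outer mitochondrial membrane that conjugates glutathione and reduces lipid peroxides (chromosome 4, 172760930 to 172776157), was the member that changed with age. In the cord its signal was 1778, 1639 and 1654 at 6 months, 2851, 3221 and 2583 at 18 months, and then 2645, 2846 and 3445 at 30 months. Every array at 18 and 30 months lay above every array at 6 months, and the 2 later groups overlapped. In the oculomotor nucleus it was 1088, 1132 and 1159, then 1083, 1126 and 1059, then 1616, 1104 and 1066. There, replicate 1 at 30 months was high and the other 8 arrays lay within 1059 to 1159.

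In the cord Mgst1 rose by 0.77 on the log2 scale from 6 to 18 months (1.70-fold, SE 0.13, 95% interval 0.49 to 1.04, limma adjusted p = 0.00648) and by 0.81 from 6 to 30 months (1.75-fold, 95% interval 0.53 to 1.09, adjusted p = 0.0127). The step from 18 to 30 months was 0.04 (SE 0.13, adjusted p = 1). Mgst1 was 1 of 9 members called in each comparison with 6 months, against 0.728% of all probe sets at 18 months (0.538% higher) and 0.221% at 30 months (0.169% higher). Mgst1 also met the rule in the series' design text at both ages in the cord and in no oculomotor comparison. That rule asks for an average change above 1.7 with all pairs of arrays in 1 direction. How many of all probe sets met it was not counted. Arrays without overlap, 1 part of the rule, were seen for 13.6% and 13.1% of all probe sets in these cord comparisons.

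Each call was lost with 1 of 18 single arrays left out. Without replicate 2 of the 18-month cord the first difference was 0.68 (limma adjusted p = 0.0739), and without replicate 3 of the 30-month cord the second was 0.70 (adjusted p = 0.0856). With all 4 arrays that stood apart left out, both were called, at 0.88 (adjusted p = 0.00314) and 0.74 (adjusted p = 0.045).

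In the oculomotor nucleus the Mgst1 difference from 6 months was -0.05 at 18 months (95% interval -0.33 to 0.23, limma adjusted p = 1) and 0.14 at 30 months (-0.14 to 0.42, adjusted p = 0.828). The second value was -0.05 without replicate 1 of the 30-month group. The change in the cord exceeded that in the oculomotor nucleus by 0.81 at 18 months (95% interval 0.42 to 1.21, unadjusted p = 0.00036) and by 0.67 at 30 months (0.28 to 1.06, unadjusted p = 0.00204). Neither difference between the tissues passed after adjustment over all probe sets (limma adjusted p = 0.758 and 0.691). At an unadjusted p under 0.05, 5.07% and 5.47% of all probe sets differed in these comparisons, and 0 of 9482 passed after adjustment in either.

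**Figure D2:**
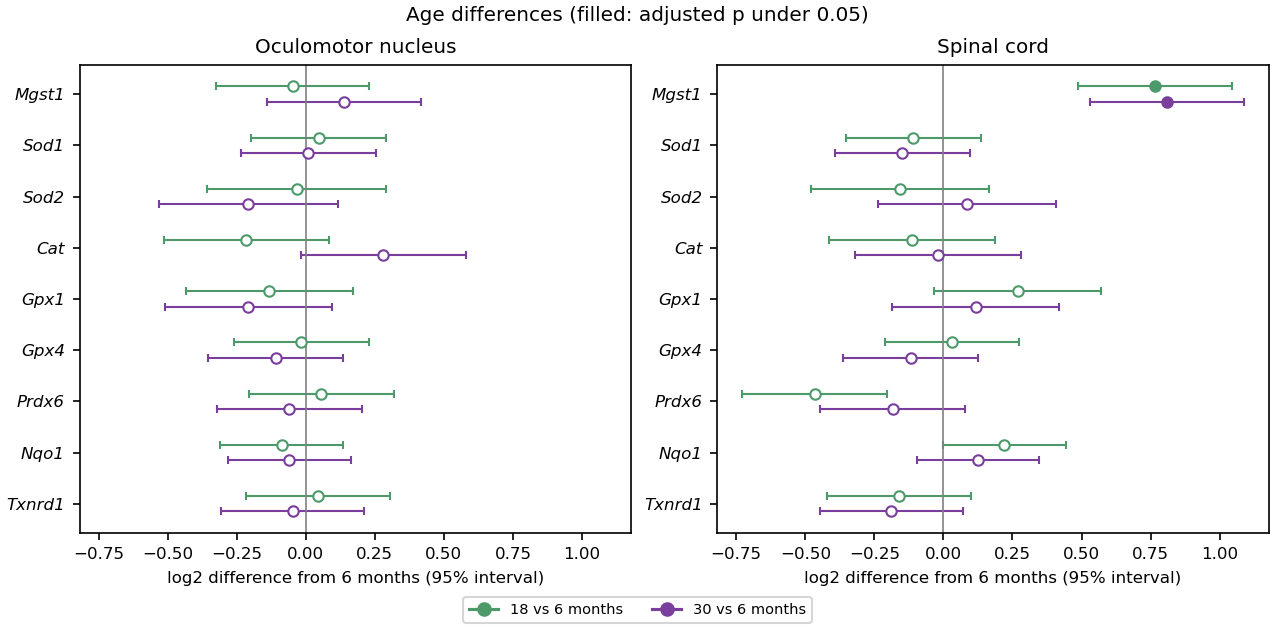
Log2 difference from 6 months with its 95% interval for each antioxidant enzyme gene, at 18 months (green) and 30 months (purple), in the oculomotor nucleus (left) and the spinal cord (right). Filled points passed limma's adjusted p under 0.05, which was so for Mgst1 in the cord at 0.77 and 0.81, and for no other point.

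Over the 9 genes the differences with age did not share a direction. In the cord 4 of 9 differences from 6 months were positive at 18 months (median -0.11 on the log2 scale, against -0.00 over all probe sets) and 4 at 30 months (median -0.02). Of the oculomotor differences 3 of 9 were positive at each age, with medians of -0.03 and -0.06, and 0 were called, against 0% of all probe sets at 18 months and 0.211% at 30 months. At an unadjusted p under 0.05 the brighter probe sets of 0 members differed there at either age, where 3.39% of all probe sets did at 18 months and 8.12% at 30 months. Between 18 and 30 months 0 members were called in either tissue, where 0.0105% of all probe sets were. Groups of arrays that did not overlap occurred for 3 members in the cord at 18 months (Mgst1, Gpx1 and Nqo1), where 13.6% of all probe sets showed the same, and for 2 in the oculomotor nucleus at 18 months (Cat and Gpx1), where 14.5% did. At 30 months they occurred for Mgst1 in the cord, where 13.1% of all probe sets did so, and for 0 of 9 genes in the oculomotor nucleus, where 13.9% did.

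Microglia and macrophage markers were, like Mgst1, higher in the cord at both later ages than at 6 months. The summed signal of 12 markers, all with a probe set, ran from 7431 to 8076 in the cord at 6 months, from 12056 to 16714 at 18 months and from 10409 to 16769 at 30 months. Of the 10 markers kept by the filter, 4 were called higher at 18 months and 2 at 30 months. Of all probe sets 0.538% and 0.169% were called higher there. The markers moved unequally: from 6 to 18 months in the cord the mean of Lgals3 went from 435 to 1937, and that of Cx3cr1 from 382 to 471. In the oculomotor nucleus 1 marker was called at 30 months, where 0.211% of all probe sets were. Oculomotor sums were 4694 to 4753, 5767 to 5797 and 6397 to 7375 at the 3 ages. These sums were higher at each later age without overlap, whereas Mgst1 stayed within 1059 to 1159 on 8 of the 9 oculomotor arrays. The array with the high Mgst1 signal, 1616, had the highest sum of that tissue, 7375, but replicate 3 of the same age had a sum of 7192 with an Mgst1 signal of 1066. The cord array with the highest Mgst1 signal, 3445, had the highest sum of all, 16769. The part of these cells in the Mgst1 result was not tested.

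**Figure D3:**
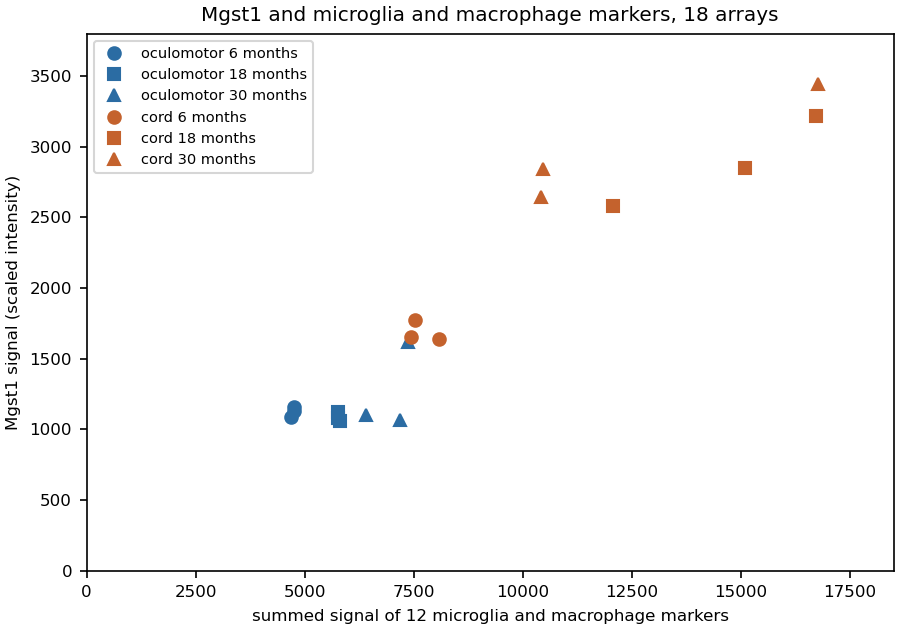
Mgst1 signal on each of the 18 arrays against the summed signal of 12 microglia and macrophage markers on the same array, both as scaled intensities on axes from 0 (blue oculomotor nucleus, orange spinal cord; circles 6, squares 18 and triangles 30 months). The cord arrays at 18 and 30 months lie to the upper right, with sums from 10409 to 16769 and Mgst1 from 2583 to 3445.

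The genes whose pattern lay closest to that of Mgst1 were sought among 6958 genes by Pearson's r over the 18 arrays, after each tissue's mean log2 signal was subtracted. The 5 nearest were Lgals3 (r = 0.91), Aif1 (0.87), RT1-Bb (0.87), Gpnmb (0.87) and Irf8 (0.85). Lgals3, Aif1 and Gpnmb belong to the marker list above, RT1-Bb encodes a chain of the rat class II antigen-presenting molecule, and Irf8 is a transcription factor of myeloid cells. Within the 9 cord arrays r lay between 0.90 and 0.95 for the 5, and within the 9 oculomotor arrays between 0.45 and 0.84. The oculomotor r can depend heavily on replicate 1 at 30 months, where Mgst1 was 1616 against a median of 1104 in that tissue. Its value without that array was not computed. The arrays share their groups, so these values describe likeness over ages and pools and carry no test.

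The summed signal of skeletal muscle markers in the cord ran from 3780 to 11317 at 6 months, with lower but overlapping ranges at the later ages (3033 to 6260, then 3273 to 3958), and 0 of the 4 markers tested were called. With the muscle signal as a covariate Mgst1 kept its calls, at 0.76 (limma adjusted p = 0.0135) and 0.80 (adjusted p = 0.0238). The muscle signal itself differed with age in the cord, and the part of muscle in the Mgst1 result was not tested. The ratio of 3′ to 5′ hexokinase probe signals, a sign of RNA integrity, lay between 1.93 and 2.12 in the cord at 6 months and between 1.66 and 2.19 at the later ages. The same ratio for beta-actin was 0.98 to 1.26 at 6 months and 1.13 to 1.40 later, and for Gapdh 0.988 to 1.30 and 0.988 to 1.14.

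The wider antioxidant lists held 114 genes beyond the 9 members, of which 100 had a probe set and 81 passed the filter. In the cord 1 of 81 was called higher and 0 lower at 18 and at 30 months, against 0.728% and 0.221% of all probe sets called in either direction, and a single call is read no further. At an unadjusted p under 0.05 there were 8 and 10 of 81 in the cord, where 10.3% and 10.7% of all probe sets passed. In the oculomotor nucleus limma called 0 of 81 at either age, against 0% of all probe sets at 18 months and 0.211% at 30 months. There 4 of 81 at 18 months and 8 at 30 months had an unadjusted p under 0.05, where 3.39% and 8.12% of all probe sets did. The median difference over the 81 genes lay between -0.03 and 0.00 in these comparisons with 6 months.

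The 1 gene called was Gpx3, the secreted glutathione peroxidase of plasma. Its cord signal was 813, 1137 and 971 at 6 months, 1858, 1803 and 1346 at 18 months, and then 1560, 1384 and 1966 at 30 months. Both later groups lay above all 6-month arrays, in comparisons where 13.6% and 13.1% of all probe sets had no overlap. Gpx3 rose by 0.78 on the log2 scale by 18 months (1.71-fold, SE 0.15, limma adjusted p = 0.0192) and by 0.75 by 30 months (SE 0.15, adjusted p = 0.0443). The 6-month cord lay below the oculomotor nucleus, where Gpx3 measured 1450 ± 107, 1444 ± 224 and 1368 ± 72.4 (SD, n = 3). The 18-month call was lost with 3 of 18 single arrays left out (replicate 1 of the 6-month cord, replicates 1 and 2 of the 18-month cord) and the 30-month call with 13 of 18. The 18-month call was also lost with no filter (limma adjusted p = 0.0684) and with a separate fit of each tissue (0.129). The 30-month call was lost in 8 settings other than single arrays, with limma adjusted p from 0.0503 with quantile normalization to 0.22 with a separate fit of each tissue. Without the 4 arrays that stood apart that difference was 0.48 (adjusted p = 0.156).

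Mgst1's own family, membrane proteins of eicosanoid and glutathione metabolism, had 6 genes with a probe set, of which 4 passed the filter. Mgst2, Mgst3 and Ltc4s, a leukotriene synthase, differed by 0.02, -0.01 and -0.00 on the log2 scale in the cord between 6 and 18 months, with limma adjusted p of 0.982, 0.98 and 0.999. At 30 months they differed from 6 months by -0.04, -0.04 and -0.22 (adjusted p = 0.951, 0.932 and 0.621), so 1 of the 4 tested, Mgst1, was positive and the median was -0.04. Alox5ap, the protein that presents arachidonic acid to 5-lipoxygenase, and Ptges, a prostaglandin E synthase, did not pass the filter and were not tested. The Alox5ap signal in the cord was 115, 92.3 and 122 at 6 months, 200.4, 187 and 161 at 18 months, and then 168, 146 and 167 at 30 months. Both later groups lay above all 6-month arrays. Of the probe sets kept, 13.6% and 13.1% had no overlap in these comparisons. Ptges ran from 78.4 to 141 in the cord, with overlap between the ages. Of the 10 soluble glutathione transferases tested 0 were called with age. Since 0 to 0.728% of all probe sets were called in the age comparisons, nothing is read from a list with 0 calls. Those with the smallest p in the cord were Gstp1 at 18 months (0.36, limma adjusted p = 0.142) and Gsta1 at 30 months (0.67, adjusted p = 0.132).

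Among the 16 genes tested for Nrf2 regulation and its classic targets, 0 were called with age. With 0 to 0.728% of all probe sets called, nothing is read from this or the other counts of 0 below. Nfe2l2, which encodes Nrf2 itself, measured 565 ± 111 (SD, n = 3), 711 ± 33.5 and 717 ± 60.5 in the cord at the 3 ages, a log2 difference of 0.35 at 18 months (limma adjusted p = 0.324) and 0.36 at 30 months (adjusted p = 0.312). Gclm, the modifier subunit of the enzyme that starts glutathione synthesis, differed by 0.37 at 30 months (adjusted p = 0.39). Akr7a3, an aldehyde reductase, differed by -0.46 at 18 months (adjusted p = 0.208). In the peroxiredoxin and thioredoxin list 0 of 14 genes were called with age, in glutathione synthesis and recycling 0 of 10, in NADPH supply 0 of 10, among metallothioneins and redox chaperones 0 of 7 and in the peroxisome list 0 of 14; the members on these lists are counted with them.

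Between the tissues the picture was broader. Of the 9 members 4 were called higher and 2 lower in the cord, against 47.2% of all probe sets called in either direction, 23.6% higher and 23.6% lower, so a large share of the whole array differed too. The 3 members without overlap across 9 and 9 arrays, Mgst1, Gpx1 and Nqo1, compare with 14.2% of all probe sets. Mgst1 was 2.11-fold higher over the ages (log2 difference 1.08, SE 0.08, limma adjusted p = 1.02e-09), and its ratio was 1.5 at 6, 2.64 at 18 and 2.39 at 30 months. The ratio of Gpx1 was 1.75, 2.30 and 2.19 and that of Nqo1 1.60, 1.97 and 1.82 at the same ages.

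**Figure D4:**
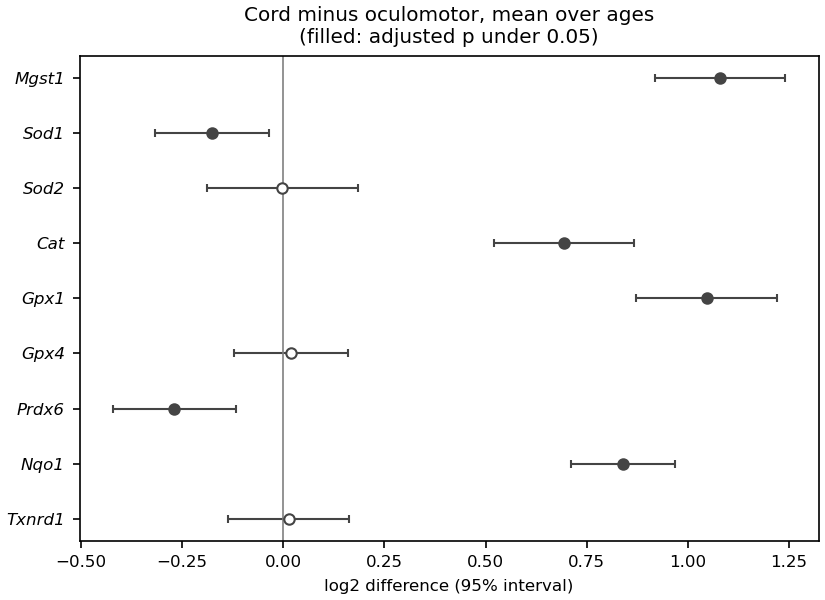
Log2 difference of the spinal cord from the oculomotor nucleus, averaged over the 3 ages, with its 95% interval, for each antioxidant enzyme gene. Filled points passed limma's adjusted p under 0.05; Mgst1, Gpx1, Nqo1 and Cat lie to the right of 0, at 1.08, 1.05, 0.84 and 0.69, and Prdx6 and Sod1 to the left, at -0.27 and -0.18.

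Of the 81 wider genes 32 were called higher and 9 lower in the cord, where 23.6% of all probe sets were called in each direction. Their median was 0.12 on the log2 scale against -0.01 over all probe sets. Without the 4 arrays that stood apart 29 were called higher and 8 lower. Sod3, the extracellular dismutase, was 2.14-fold higher (761 ± 55.1 against 361 ± 63.9, SD, n = 9, limma adjusted p = 1.76e-09). Gpx2, best known from the gut, was 2.01-fold higher (adjusted p = 2.59e-08). Among glutathione transferases Gstm2 was 2.59-fold higher (adjusted p = 8.12e-09) and Gsta1 1.71-fold higher (4.14e-06), whereas Gstm7 was 1.64-fold lower (4.98e-08). Nfe2l2 was 1.44-fold higher (1.39e-05), Gclm 1.26-fold higher (0.00459) and Hmox1, the haem oxygenase that Nrf2 induces, 1.29-fold higher (limma adjusted p = 0.00992). In the thioredoxin system Txnip, an inhibitor of thioredoxin, was 1.56-fold higher (1.41e-07), and Prdx3, the mitochondrial peroxiredoxin, was 1.16-fold lower (limma adjusted p = 0.0198).

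Some other tissues' markers separated the same arrays. Summed signals of astrocyte, oligodendrocyte and myelin, neuron, skeletal muscle and choroid plexus markers overlapped between the tissues. Blood markers, read from 3 of 5 listed genes, summed to 4330 to 9499 in the oculomotor nucleus and 9651 to 19926 in the cord. Most of this sum was Hbb, with group means of 5716 to 6651 and 12019 to 12849. Alas2 was also higher in the cord (846 to 1238 against 232 to 391). Slc4a1 was not higher throughout: its means by age were 131, 170 and 103 in the cord against 138, 123 and 158. Summed signals of meninges and fibroblasts ran from 1250 to 2780 and from 4633 to 7744. Those of endothelium were 2514 to 3024 and 3683 to 4189, and of Schwann cells 1212 to 1452 and 2881 to 5261. In the endothelium list Cldn5, Vwf and Slco1a4 were higher in the cord at each age. The group means of Flt1 (277 to 319 and 281 to 287) and Pecam1 (107 to 140 and 130 to 150) differed little. The Schwann cell sum was read from 2 of 4 listed genes and was mostly Pmp22, with group means of 1220 to 1259 and 3057 to 3916. Microglia and macrophage markers ran from 4694 to 7375 and from 7431 to 16769. The part of these cells in the tissue differences was not tested. The oculomotor samples also carried little of their defining motor neuron markers: the summed motor neuron signal was 696 to 1030 there and 2052 to 2892 in the cord, while dopamine neuron markers summed to 6761 to 8174 against 731 to 1072. The values describe the dissected tissue as a whole.

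In the order of the 6 group means, Mgst1 ran from the oculomotor nucleus at 18, 6 and 30 months through the cord at 6 months to the cord at 18 and 30 months. Neighbours overlapped within the oculomotor nucleus and between the 2 later cord groups, while the steps from 30-month oculomotor nucleus to 6-month cord and from 6-month to 18-month cord had no overlap. Gpx1 and Nqo1 had a gap between the highest oculomotor group and the 6-month cord, with overlapping neighbours among the 3 cord groups. For Sod1, Sod2, Gpx4 and the brighter Txnrd1 probe set every pair of neighbours overlapped.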

How the data were processed

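RNA from 18 pools was read on Affymetrix RA230 arrays. Per the submitters' processing notes the authors used MAS5 (Microarray Suite 5.0 in the design text); the deposited table holds 1 linear intensity per probe set and array, without detection calls, and its background and scaling settings are not given in the sources used here. From the values, all arrays share a 2% trimmed mean near 500.1, and no centring was found. MAS5 intensities are noisiest when dim, and scaling makes each value relative to the array's total.

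Intensities below the pooled 20th percentile (66.4) were raised to it and log2 was taken. Probe sets were kept with a mean log2 signal above the pooled 40th percentile (7.46), without 57 controls. limma 3.58.1 in R 4.3.3 fitted 6 group means to 18 arrays (lmFit, eBayes with trend, 12 residual degrees of freedom), 2-sided, with Benjamini-Hochberg adjustment over 9482 probe sets and a call at 0.05. The fit was also run on simulated data with noise independent between arrays, unlike the spread that arrays shared on the first principal component. Nothing is read from that run about the members. Group levels are means of linear signals, folds come from log2 means, and p-values measure the spread between pools.

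Genes were named from the platform annotation and RefSeq tables (12789 probe sets named 1 gene, 312 several, 2822 none); the probe set with the highest mean stands for a gene. Loci and promoters come from RefSeq on GRCr8. The members and lists were chosen with earlier results of these data known. All members are named, with up to 4 genes of each wider list by smallest p, and the 5 genes most like a member that was called. Gene lists were described by counts and medians, without set tests. Alternatives covered the floor, filter, scaling, trend, probe set, a replicate block, separate tissue fits, a muscle covariate, each array left out and, chosen after seeing the data, the 4 outlying arrays left out.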

Additional observations from a re-analysis of the deposited data

Results flagged for a closer look

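The Gpx1 arrays of the 2 tissues lay on opposite sides of their 6-month values at 18 months: all 3 oculomotor arrays lay below those at 6 months, and all 3 cord arrays lay above theirs. Neither change passed the test (limma adjusted p = 1 and 0.545), the cord value was 0.17 without replicate 2 of the 18-month cord, and arrays without overlap were seen for 14.5% and 13.6% of all probe sets in these comparisons. The difference between the changes was 0.40 on the log2 scale (unadjusted p = 0.0649, limma adjusted p = 0.983).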

How the results depend on the processing

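Of 2739 values of the members and Gpx3 under alternative settings, 2663 kept their direction and side of the threshold or moved by less than the replicate SD, 58 lost a call (42 of them with 1 array left out), 1 gained one, 16 moved and 1 reversed; 93 values that were not called changed sign. The reversed value was the Txnrd1 tissue difference, -0.19 from its other probe set (limma adjusted p = 0.0407). The number of members called was 0 in the cord at 30 months with no filter (Mgst1 adjusted p = 0.0517) and with a separate fit of each tissue (0.0949), where more probe sets or fewer arrays entered. With 1 array left out it ranged from 0 to 2 in the cord at 18 months and from 0 to 1 at 30 months. The Sod1 tissue call was also lost with no filter (limma adjusted p = 0.0626) and without the trend (0.0514); the cause was not tested.

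Probe sets called over the whole array moved further: 69 in the cord at 18 months became 15 to 127 across settings that kept all arrays or left out the 4 outlying ones, 21 at 30 months became 0 to 72, and 20 in the oculomotor nucleus at 30 months became 8 to 22. With 1 array left out the counts ran from 15 (without replicate 2 of the 18-month cord) to 100, from 0 (without replicate 3 of the 30-month cord) to 43 (without replicate 3 of the 6-month cord), and from 4 (without replicate 2 of the 6-month group) to 69 (without replicate 1 of the 30-month group). Replicate numbers were not taken to pair the arrays, since not every residual correlation of same-numbered arrays was over 0.1 (-0.26 to 0.501), although the 3 between tissues at 30 months were (0.121, 0.235 and 0.501). With the replicate block Mgst1 kept its calls (limma adjusted p = 0.013 and 0.0276), 1 member was called in the cord at each age and 6 between the tissues, Gpx3 lost its 30-month call (0.0526), and 9 oculomotor probe sets were called in place of 20. With 3 pools a group, differences of the size seen for Gpx1 or Nqo1 with age could not be told from the spread.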

Other observations

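Within the oculomotor nucleus the summed signal of meninges and fibroblast markers was 2513 to 2780 on the arrays of 6 months, 1821 to 1992 on those of 18 months and 1250 to 1593 on those of 30 months, with no overlap between ages. Choroid plexus markers summed to 6702 on replicate 1 at 6 months and 4563 on replicate 1 at 18 months. The other 7 oculomotor arrays ran from 2325 to 3366. Ttr varied most, with oculomotor means of 1336 ± 2065 (SD, n = 3), 818 ± 755 and 261 ± 221 by age. Enpp2 (means 2151 to 2410) and Folr1 (289 to 300) varied less, and Kl was at the floor on each oculomotor array.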
